A study of Mus musculus with 23 samples.

Results

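Wild-type mouse embryonic fibroblasts (MEFs) were compared with wild-type CD8+ T cells on 9 of the 23 Affymetrix Mouse 430A 2.0 arrays of a study of the chromatin regulators Snf5 and Ezh2. The 9 arrays were chosen by their titles alone. They comprised 3 arrays of MEFs from E13.5 embryos, named as controls for an Ezh2-deficient line, and 6 arrays of purified CD8+ T cells, whose donor mice were 10 to 15 weeks old. Both groups were wild type and untreated as far as the labels go. The sources used here give no strain, sex, MEF passage, organ of origin or purification method of the T cells, nor whether animals were pooled. In the study these arrays served as the baselines for mutant MEFs and for Snf5-deficient lymphomas, and the labels state no comparison between them. Because the deposited MEF and T cell values had different distributions, as separate normalisation runs give, each array was turned into percentile ranks of its 22626 probe sets (0 is the dimmest and 100 the brightest), and differences are given in points of rank, MEFs minus CD8 T cells. A gene was called when the adjusted p from limma was under 0.05. Cell type, normalisation run and donor age cannot be told apart in this design, the part of sex, which the labels do not give, was not tested, and in bulk RNA fewer cells of a type cannot be told apart from less RNA per cell.

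Fibroblasts are the matrix-building cells of connective tissue. They secrete collagens and the enzymes that fold and crosslink them, pull on that matrix with actin stress fibres through integrins, and are specified by mesenchymal transcription factors. CD8 T cells circulate as small, mostly resting lymphocytes that recognise peptides on MHC class I through the T cell receptor and the CD8 coreceptor, signal through Src-family and Syk-family kinases, and kill with granule proteins. Chromatin regulators are expressed in both cell types. SWI/SNF slides and evicts nucleosomes, PRC2 places the repressive H3K27 methyl mark through Ezh2 or Ezh1, and the MLL-type enzymes place H3K4 methylation at promoters and enhancers.

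The MEF arrays were nearly interchangeable and the CD8 arrays were not. Ranks correlated at 0.997 among the MEF arrays, at 0.889 to 0.984 among the CD8 arrays and at 0.621 to 0.647 between the cell types, as a description over probe sets. CD8 arrays 1 and 6 resembled each other (0.984), as did arrays 3 and 4 (0.984), and the lowest values were those between these pairs. All 9 measured fibroblast markers of 10 chosen (among them Col1a1, Pdgfrb, Dcn and Twist1) were higher in the MEFs. Of the 8 measured CD8 T cell markers, 7 were higher in the CD8 arrays, and Zap70, whose probe sets opposed each other, is described with the signalling genes. Cd8a, the alpha chain of the coreceptor, ranked at 98.4, 98.7, 98.6 and 97.9 on CD8 arrays 2 to 5 but at 75.7 and 74.1 on arrays 1 and 6, against 28.8 to 31.0 in the MEFs. Cd8b1, the beta chain, ranked at 94.0 to 98.7 on arrays 2 to 5, at 59.9 and 47.7 on arrays 1 and 6, and at 11 to 13.8 in the MEFs. The groups did not overlap for either chain, but arrays 1 and 6 stood apart from the other four.

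Markers of other blood cells moved with this split. The mean rank of 16 myeloid markers was 84.5 and 84 on CD8 arrays 1 and 6, 50.3 and 43.7 on arrays 2 and 5, and 37.9 and 36.8 on arrays 3 and 4, where it lay within or next to the MEF range of 37.0 to 39.0. S100a8, a neutrophil calcium-binding protein, ranked at 99.8 on both arrays 1 and 6 and at 45.6 and 54.0 on arrays 3 and 4. The mean of 15 B cell markers was 80.8 and 79.2 on arrays 1 and 6, 59.2 and 59.8 on arrays 2 and 5, and 45.4 and 45.3 on arrays 3 and 4, all above the MEFs at 27.4 to 28.1. Erythroid markers (7 genes) averaged 69.5 and 69.7 on arrays 2 and 5, 62.7 on arrays 1 and 6, and 39.4 and 37.8 on arrays 3 and 4. Cell cycle genes fell into the same pairs of arrays as the B cell markers, with a mean over 31 genes of 85.2 and 86.8 on arrays 1 and 6 and 59.4 and 61.8 on arrays 3 and 4. Ranks have no zero and the table holds no detection calls, so no marker can be called absent, and the part of other cells in the results below was not tested. The leading counts are therefore also given without CD8 arrays 1 and 6 and with arrays 3 and 4 alone. Both choices were made after the data were seen, so calls and adjusted p-values from them are descriptive only. With arrays 3 and 4 alone, which resembled each other, they do not measure the spread of the whole CD8 group.

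**Figure D1:**
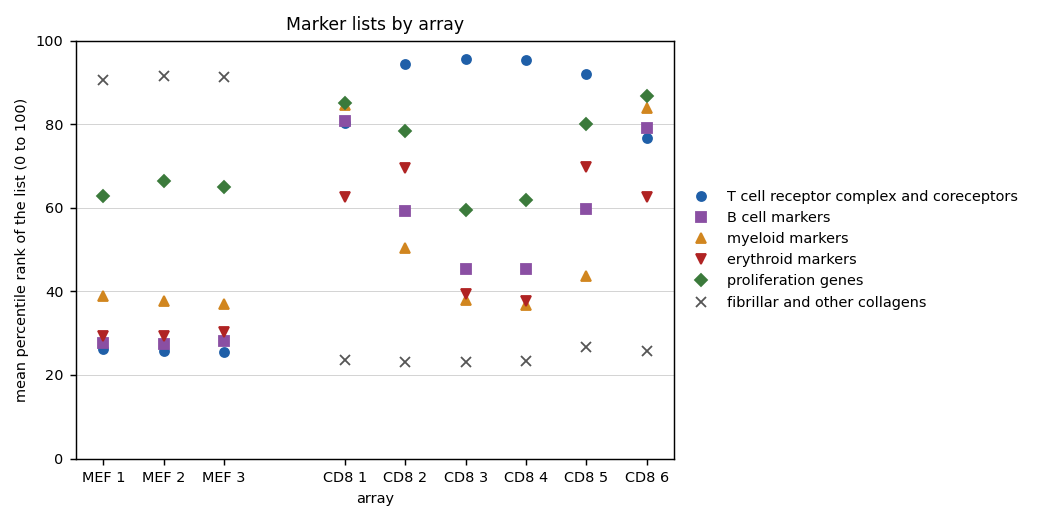
Mean percentile rank (vertical axis, 0 to 100) of 6 gene lists on each of the 3 MEF and 6 CD8 arrays (horizontal axis). CD8 arrays 1 and 6 carry the highest myeloid and B cell values and the lowest T cell receptor values, and arrays 3 and 4 the lowest myeloid, B cell and erythroid values of the CD8 group.

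The cell types differed over most of the transcriptome. Of 12393 genes, 8304 were called (67%), 4284 higher in the MEFs (34.6%) and 4020 higher in the CD8 T cells (32.4%). With a difference of at least 25 points added, 1344 genes were higher in the MEFs (10.8%) and 1285 in the CD8 T cells (10.4%). Without CD8 arrays 1 and 6 these were 1398 (11.3%) and 1295 (10.4%), and 8862 genes were called (71.5%). With arrays 3 and 4 alone 10085 genes were called (81.4%), 1470 (11.9%) and 1294 (10.4%) of them by at least 25 points. Groups did not overlap for 8299 genes (67%), of which 4243 were higher in the MEFs (34.2%) and 4056 in the CD8 T cells (32.7%). Over single probe sets, 15316 of 22626 were called (67.7%), and the median difference over all genes was 0.23 points. Counts of the gene lists below are read against these shares, and the lists were chosen with earlier results of these data known.

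Genes of the fibroblast lists were almost all higher in the MEFs. Of 164 measured genes in 8 lists, 151 were higher in the MEFs (92.1%, against 34.6% of all genes), 2 were higher in the CD8 T cells and 11 did not pass. By at least 25 points, 125 were higher in the MEFs and 1 in the CD8 T cells, and without arrays 1 and 6 the counts were 127 and 1. With arrays 3 and 4 alone 156 were called higher in the MEFs, 129 by at least 25 points. The median difference was 52.3 points, and 54.2 without arrays 1 and 6. The mean rank of these 164 genes was 82.3 to 82.9 on the MEF arrays and 32.4 to 37.1 on the CD8 arrays.

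The collagens had a median difference of 72.1 points. All 15 measured were higher in the MEFs, 14 of them by at least 25 points. Col1a1, the major chain of fibrillar collagen I, ranked at 99.4, 99.4 and 99.5 in the MEFs and at 26.8 to 32.0 in the CD8 T cells, with a median of 31.0. The groups lay far apart, and the difference was 69.0 points (SE 2.07, adjusted p = 4.15e-09, limma). Col1a2, its partner chain, ranked at 99.4 to 99.5 in the MEFs and at 10.1 to 24.6 in the CD8 T cells, a difference of 80.5 points (SE 3.43). Col5a2, which sets the diameter of collagen fibrils, differed by 85.3 points (SE 2.25), and Col4a1, a basement membrane chain, by 79.7 points (SE 3.99).

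Genes that process collagen moved with it. All 18 measured were higher in the MEFs, 17 by at least 25 points, with a median of 59.3 points. Serpinh1, the collagen chaperone HSP47 of the endoplasmic reticulum, ranked at 98.3, 98.5 and 98.5 in the MEFs and at 3.01 to 13.1 in the CD8 T cells, with a median of 6.16. Its difference of 91.9 points (SE 2.44, adjusted p = 2.17e-09, limma) was among the largest of all genes, and the CD8 array with the highest value was array 6. Lox, the lysyl oxidase that crosslinks collagen and elastin, differed by 82.4 points (SE 2.85), its relative Loxl1 by 78.2 points (SE 2.58), and Timp3, a matrix-bound metalloproteinase inhibitor, by 82.6 points (SE 5.44).

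Among matrix glycoproteins and proteoglycans, 23 of 24 were higher in the MEFs, 20 by at least 25 points, with a median of 55.4 points. Fbln5, a fibulin of elastic fibres, ranked at 96.0, 96.6 and 96.6 in the MEFs and at 3.80 to 11.1 in the CD8 T cells, with a median of 5.00, a difference of 90.7 points (SE 2.08, adjusted p = 9.8e-10, limma). Tnc, the glycoprotein tenascin C, differed by 86.4 points (SE 2.52). Dcn, the small proteoglycan decorin, was less uniform among the MEFs, at 66.5, 75.8 and 66.6, and ranked at 17.6 to 25.3 in the CD8 T cells, a difference of 49.0 points (SE 2.73). Fn1, fibronectin, ranked at 99.8 to 99.9 in the MEFs but did not show 1 level in the CD8 group. It ranked at 92.5 and 94.3 on CD8 arrays 1 and 6, the arrays with the high myeloid markers, and at 20.7 to 37.6 on arrays 2 to 5. Its difference was 48.4 points with all arrays (SE 17.1, adjusted p = 0.0303, limma) and 69.3 points without arrays 1 and 6 (adjusted p = 2.53e-06, limma). Among the CD8 arrays Fn1 was highest on these, which were left out after the data were seen, so the second p is descriptive only. Its call was lost when any MEF array (adjusted p 0.0755 to 0.0758, limma) or CD8 array 2, 3, 4 or 5 was left out (0.0503 to 0.0565).

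Adhesion molecules and growth factor receptors were higher in the MEFs for 16 of 18 genes, 11 by at least 25 points, with a median of 38.3 points. Cdh11, the cadherin of mesenchymal cells, ranked at 97.4, 97.5 and 97.4 in the MEFs and at 2.20 to 5.01 in the CD8 T cells, with a median of 3.02. The difference of 94.3 points (SE 1.54, adjusted p = 3.45e-10, limma) was exceeded in this direction only by Prss23, a secreted serine protease in no list, at 94.5 points (SE 1.51). The platelet-derived growth factor receptors differed by less. Pdgfrb ranked at 80.9, 78.9 and 81.2 in the MEFs and 38.9 to 45.3 in the CD8 T cells (38.3 points, SE 2.22), and Pdgfra at 34.9, 47.3 and 43.1 against 15.7 to 18.5 (24.5 points, SE 2.43).

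All 6 caveolae genes were higher in the MEFs by at least 25 points, with a median of 71.6 points. Cav1, the caveolin that coats these membrane pits, ranked at 98.8 on each MEF array and at 9.29 to 27.3 in the CD8 T cells (79.3 points, SE 4.46). Secreted growth factors and their binders were higher in the MEFs for 23 of 24 genes, 22 by at least 25 points, with a median of 62.4 points. Ccn2, the matricellular connective tissue growth factor, ranked at 99.5 to 99.8 in the MEFs. On the CD8 arrays it ranked at 11.1 to 16.7 except for array 4, at 38.6, and the difference was 82.2 points (SE 5.73). Fstl1, a secreted follistatin-like glycoprotein, differed by 77.9 points (SE 2.62).

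Mesenchymal transcription factors were higher in the MEFs for 33 of 38 genes, 25 by at least 25 points. Their median was 36.3 points. Prrx1, a homeobox factor of limb and craniofacial mesenchyme, ranked at 94.6, 95.6 and 95.4 in the MEFs and at 9.06 to 10.9 in the CD8 T cells, with a median of 9.92. The spread in both groups was narrow, and the difference was 85.3 points (SE 1.62, adjusted p = 3.99e-10, limma). Twist2 and Twist1, basic helix-loop-helix factors of mesoderm, differed by 63.5 points (SE 3.19) and 61.4 points (SE 4.91). Wwtr1, the Hippo pathway coactivator TAZ, differed by 66.0 points (SE 2.04). The 2 factors called in the other direction were Nfia and Osr2. Nfia, a nuclear factor I protein, ranked at 25.2 to 26.1 in the MEFs and at 46.2 to 93.5 in the CD8 T cells (-38.5 points, SE 10.1, adjusted p = 0.00737, limma). Its difference was -23.9 points with arrays 3 and 4 alone. Other probe sets of Nfia, at -2.17 and 1.41 points, did not pass (adjusted p = 0.42 and 0.506, limma). Osr2, an odd-skipped factor, had overlapping groups and differed by -7.66 points (adjusted p = 0.0314, limma). It lost its call without arrays 1 and 6 (adjusted p = 0.0622, limma) and when any MEF array or CD8 array 1 was left out (0.0512 to 0.0924), and it turned to 0.42 (log2, adjusted p = 0.236, limma) on log2 values centred on the array median.

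**Figure D2:**
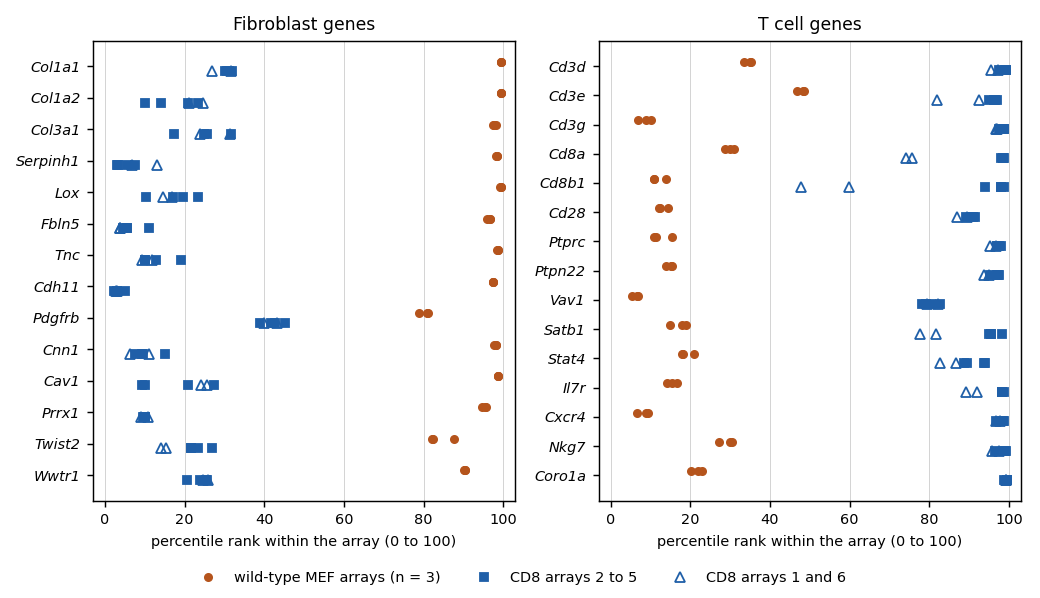
Percentile rank (horizontal axis, 0 to 100) of fibroblast genes (left) and T cell genes (right) on each array, with MEF arrays as circles, CD8 arrays 2 to 5 as squares and CD8 arrays 1 and 6 as triangles. No gene shown has overlapping groups, and Cd8a, Cd8b1 and Satb1 sit lower on arrays 1 and 6 than on the other CD8 arrays.

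In the contractile and cytoskeletal list 17 of 21 genes were higher in the MEFs, 10 by at least 25 points. The median was 16.9 points, 24.08 points with CD8 arrays 3 and 4 alone and 36 points with each gene averaged over its probe sets. Cnn1, the smooth muscle protein calponin, ranked at 98.3, 97.6 and 98.2 in the MEFs and at 6.33 to 15.0 in the CD8 T cells (88.3 points, SE 2.25, adjusted p = 1.73e-09, limma). Acta2, smooth muscle actin, was at the top of the MEF arrays (99.9 to 100) and at 22.3 to 47.7 in the CD8 T cells, with the 2 highest values on arrays 1 and 6 (68.0 points, SE 6.00). Myl9, a myosin regulatory light chain, differed by 66.8 points (SE 2.5), and Cald1, the actin-binding protein caldesmon, by 68.1 points (SE 2.68). Vim, the intermediate filament protein vimentin, often used as a mesenchymal marker, ranked at 99.0 on each MEF array and at 98.7 to 99.6 in the CD8 T cells (difference of -0.03 points, SE 0.33, adjusted p = 0.941, limma). Ranks near 100 leave little room for a difference.

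The promoters of this list were searched for the motifs of its best-known activators, the serum response factor (the CArG box) and TEAD factors (GGAATG), on both strands of the 250 bases before the start. Sequences are from RefSeq on GRCm38.p6, and 20 of the list's genes and 9887 measured genes had an entry. The CArG box was found in 3 of 20 (15%) against 1.38% of all promoters, and GGAATG in 8 of 20 (40%) against 11.4%. Of the 3 with a CArG box, Cnn2 did not differ by the test (0.66 points). The promoters of 4 genes that were higher in the MEFs are printed to show these letters in place, with the motif in capitals. They are Myl9 (chr2:156775214-156775463, plus strand), Vcl (chr14:20929148-20929397, plus strand), Cald1 (chr6:34598254-34598503, plus strand) and Acta2 (chr19:34255374-34255623, minus strand).
Myl9: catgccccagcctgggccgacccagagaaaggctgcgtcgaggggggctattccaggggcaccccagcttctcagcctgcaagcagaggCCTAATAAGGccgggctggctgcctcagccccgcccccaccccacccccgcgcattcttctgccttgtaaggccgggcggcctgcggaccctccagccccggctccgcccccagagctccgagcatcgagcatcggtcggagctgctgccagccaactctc
Vcl: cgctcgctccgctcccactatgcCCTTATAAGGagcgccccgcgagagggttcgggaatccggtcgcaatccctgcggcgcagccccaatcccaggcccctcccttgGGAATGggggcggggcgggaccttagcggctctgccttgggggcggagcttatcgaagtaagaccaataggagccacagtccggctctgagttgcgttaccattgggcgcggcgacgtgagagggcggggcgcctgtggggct
Cald1: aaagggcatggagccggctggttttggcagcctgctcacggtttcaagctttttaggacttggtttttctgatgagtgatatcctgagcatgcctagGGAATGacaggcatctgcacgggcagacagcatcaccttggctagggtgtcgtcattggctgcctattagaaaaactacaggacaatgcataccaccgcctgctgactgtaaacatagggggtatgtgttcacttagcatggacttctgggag
Acta2: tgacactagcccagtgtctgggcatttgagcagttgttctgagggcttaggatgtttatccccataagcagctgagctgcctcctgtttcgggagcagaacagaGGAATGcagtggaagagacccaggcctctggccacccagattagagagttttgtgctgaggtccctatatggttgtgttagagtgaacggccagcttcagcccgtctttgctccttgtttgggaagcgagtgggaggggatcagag

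In Myl9 the CArG box lay 161 to 152 bases before the start, and in Vcl, the focal adhesion protein vinculin, 227 to 218 bases before it. GGAATG lay 143 to 138 bases before the start in Vcl, 153 to 148 in Cald1 and 146 to 141 in Acta2. Vcl had the smallest difference of these 4 by its brighter probe set. It ranked at 98.7 to 98.8 in the MEFs and at 68.8 to 95.3 in the CD8 T cells, and its difference of 12.9 points (SE 5.18) lost its call when any MEF array or CD8 array 2, 3 or 5 was left out (adjusted p 0.0643 to 0.11, limma). Without arrays 1 and 6 it was 17.4 points (adjusted p = 0.00906, limma). The other Vcl probe set ranked at 94.6 in the MEFs and 35.5 in the CD8 T cells on average (59.1 points, adjusted p = 4.55e-08, limma). Among the collagens the CArG box was in 0 of 12 promoters and GGAATG in 2 of 12 (16.7%). For the T cell lists, the ETS motif CCGGAAGT was in 0 of 9 promoters of the T cell receptor list and 0 of 18 of the signalling list. It was in 0 of 16 of the leukocyte actin and GTPase list, against 4.84% of all promoters. The RUNX motif TGTGGT was in 1 of 9 (11.1%), 1 of 18 (5.56%) and 3 of 16 (18.8%) of these lists, against 11.3%. A match describes letters only, not binding.

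Genes of the T cell lists were mostly higher in the CD8 T cells. Of 155 measured genes in 8 lists, 129 were higher there (83.2%, against 32.4% of all genes), 4 were higher in the MEFs and 22 did not pass. By at least 25 points, 102 were higher in the CD8 T cells and 1 in the MEFs, and 106 and 1 without CD8 arrays 1 and 6. With arrays 3 and 4 alone 142 were called higher in the CD8 T cells, 108 by at least 25 points. The median difference was -44.3 points, and -46.2 without those arrays. The mean rank of these genes was 38.5 to 38.6 on the MEF arrays and 74.0 to 85.2 on the CD8 arrays, lowest on arrays 1 and 6.

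In the T cell receptor complex and its coreceptors, 13 of 14 genes were higher in the CD8 T cells, all 13 by at least 25 points, with a median of -68.9 points. Cd3g, a signalling chain of the complex, ranked at 8.80, 6.79 and 10.1 in the MEFs and at 96.8 to 98.8 in the CD8 T cells, with a median of 98.0. It differed by -89.3 points (SE 1.62, adjusted p = 3.77e-10, limma), with all 6 CD8 arrays together at the top. Cd3d and Cd3e differed by -63.5 points (SE 1.31) and -45.3 points (SE 3.15), and array 6 was the lowest for both. Ptprc, the phosphatase CD45 of all leukocytes, differed by -84.3 points (SE 1.71), and the costimulatory receptors Cd28 and Cd27 by -76.8 points (SE 1.89) and -86.0 points (SE 5.25). Thy1, a surface glycoprotein of mouse T cells that fibroblasts carry as well, was the exception. It ranked at 97.5, 98.1 and 97.0 in the MEFs and at 94.6 to 98.4 in the CD8 T cells (0.57 points, SE 0.91, adjusted p = 0.594, limma).

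Proximal T cell receptor signalling genes were higher in the CD8 T cells for 17 of 21 genes, 14 by at least 25 points, with a median of -45.0 points. Ptpn22, a phosphatase that restrains Src-family kinases, ranked at 13.8 to 15.4 in the MEFs and at 93.7 to 97.5 in the CD8 T cells (-81.1 points, SE 1.63, adjusted p = 5.54e-10, limma). Vav1, a guanine nucleotide exchange factor, differed by -74.1 points (SE 2.07), the adaptor Trat1 by -71.2 points (SE 4.01) and the adaptor Lat by -59.0 points (SE 2.63). Zap70, the kinase recruited to the receptor, was the gene called in the other direction, and this rested on the choice of probe set. The brighter probe set ranked at 70.6 in the MEFs and 54.1 in the CD8 T cells on average (16.5 points, adjusted p = 0.0106, limma), and the other at 22.3 and 73.4 (-51.1 points, adjusted p = 0.000136, limma).

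Of 33 lymphoid transcription factors, 24 were higher in the CD8 T cells (16 by at least 25 points), 2 in the MEFs and 7 did not pass, with a median of -24.2 points. Myb, a factor of lymphoid and haematopoietic progenitors, ranked at 8.72 to 11.5 in the MEFs and at 91.8 to 98.6 in the CD8 T cells (-86.3 points, SE 2.01, adjusted p = 1.09e-09, limma). Satb1, a T cell chromatin organiser, differed by -73.3 points (SE 4.78) and Stat4, which relays interleukin 12, by -70.2 points (SE 2.74). Lef1 and Bcl11b, factors of T cell identity, ranked lower on CD8 arrays 1 and 6 than on the others. Lef1 was at 25.6 and 11.1 there and at 59.5 to 70.1 on arrays 2 to 5, against 14.6 to 16.3 in the MEFs, so array 6 lay below the MEFs. Bcl11b was at 35.7 and 39.0 there and at 72.2 to 84.1 on arrays 2 to 5, against 31.0 to 35.9. Their differences were -34.5 and -30.7 points with all arrays, and both lost their call when any MEF array (adjusted p 0.0765 to 0.1, limma) or CD8 array 2, 3, 4 or 5 was left out (0.0593 to 0.0746). By the exact permutation test the adjusted p was 0.125 for Lef1 and 0.0672 for Bcl11b. The differences were -50.3 and -44.3 points without arrays 1 and 6 (adjusted p = 2.22e-06 and 8.22e-06, limma). Those arrays held the lowest CD8 values of both genes and were left out after the data were seen, so these p-values are descriptive only.

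Both factors called higher in the MEFs are known from T cell lineage choice. Zbtb7b, the zinc finger protein ThPOK that directs thymocytes away from the CD8 lineage, ranked at 82.5, 82.8 and 84.1 in the MEFs and at 25.4 to 42.0 in the CD8 T cells (48.4 points, SE 3.59, adjusted p = 1.76e-06, limma). Runx3, its opponent in the CD8 lineage, ranked at 44.9 to 46.2 in the MEFs and at 29.2 to 44.3 in the CD8 T cells (9.24 points, SE 3.40, adjusted p = 0.0356, limma). The call for Runx3 was lost without CD8 arrays 1 and 6 (6.02 points, adjusted p = 0.0515, limma) and when any MEF array or CD8 array 1, 4 or 6 was left out (adjusted p 0.0513 to 0.102, limma).

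Naive, quiescence and homing genes were higher in the CD8 T cells for 21 of 24 genes, 19 by at least 25 points, with a median of -58.5 points. Ms4a4b, a membrane protein of the CD20 family in T cells, held the largest difference of all genes in this direction. It ranked at 2.90, 4.00 and 2.20 in the MEFs and at 93.8 to 99.2 in the CD8 T cells, with a median of 98.9 (-94.6 points, SE 1.97, adjusted p = 6.25e-10, limma). Cxcr4, the receptor for the chemokine CXCL12, ranked at 6.69 to 9.33 against 96.7 to 98.7 (-89.5 points, SE 1.59). Il7r, the survival receptor of resting T cells, differed by -80.4 points (SE 2.56), and Itgb2, the beta chain of the LFA-1 integrin, by -78.6 points (SE 2.11). Ccr7, which guides naive cells to lymph nodes, ranked at 60.9 and 67.9 on CD8 arrays 1 and 6 and at 93.9 to 97.4 on arrays 2 to 5, against 19.8 to 22.0 in the MEFs (-64.0 points, SE 8.62).

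Cytokine receptor and Jak-Stat genes were higher in the CD8 T cells for 13 of 17 genes, 8 by at least 25 points, with a median of -21.2 points. Il2rb, the beta chain shared by the interleukin 2 and 15 receptors, differed by -67.2 points (SE 2.83). Cytotoxic effector and NK receptor genes were higher in the CD8 T cells for 16 of 19, 15 by at least 25 points, with a median of -41.3 points. Srgn, the granule proteoglycan serglycin, ranked at 15.4 to 16.7 in the MEFs and at 95.8 to 99.1 in the CD8 T cells (-82.1 points, SE 1.48, adjusted p = 3.69e-10, limma). Klrd1, the CD94 chain of NK-type receptors, differed by -79.5 points (SE 5.74) and Nkg7, a granule membrane protein, by -68.6 points (SE 1.44). The effector genes of activated cells varied more. Gzmb, granzyme B, ranked between 54.6 and 83.8 on the CD8 arrays, and Ifng, interferon gamma, at 93.5 and 84.4 on arrays 3 and 4 and at 19.3 to 46.5 on the other four, against 2.35 to 3.16 in the MEFs (-52.3 points, SE 14.7, adjusted p = 0.0104, limma).

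Class I antigen presentation genes were higher in the CD8 T cells for 9 of 10, 4 by at least 25 points, with a median of -21.3 points. Psmb9, an immunoproteasome subunit, differed by -63.6 points (SE 1.51) and Tap1, a subunit of the peptide transporter, by -41.2 points (SE 1.12). Leukocyte actin and GTPase genes were higher in the CD8 T cells for 16 of 17, 13 by at least 25 points, with a median of -45.3 points.

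Several of these leukocyte genes have a close relative with a broad or mesenchymal distribution. For description, 20 such pairs were chosen with earlier results of these data known, and several differed in opposite directions. Coro1a, the leukocyte coronin, ranked at 20.1 to 23.0 in the MEFs and at 98.8 to 99.4 in the CD8 T cells (-77.5 points, SE 1.29, adjusted p = 3.45e-10, limma). Its relative Coro1c differed by 17.5 points (SE 4.61), with probe sets that opposed each other. The plastins Lcp1 and Pls3, which bundle actin, differed by -54.6 points (SE 1.64) and 56.1 points (SE 9.80). The kindlins Fermt3 and Fermt2, which activate integrins, differed by -45.3 points (SE 2.07) and 64.0 points (SE 2.67). The integrin chains Itgb2 and Itgb5 differed by -78.6 and 42.7 points, and the actin regulators Evl and Enah by -24.5 points (SE 2.08) and 63.6 points (SE 9.08). Dock2 and Dock1, exchange factors for Rac, differed by -71.1 points (SE 1.24) and 30.0 points (SE 11.2), and Dock1 lost its call when any MEF array or CD8 array 2, 3, 4 or 5 was left out (adjusted p 0.0511 to 0.0954, limma). Other pairs were not opposed. Rac2 differed by -54.9 points (SE 1.86) beside 2.46 points for Rac1 (SE 1.09, adjusted p = 0.07, limma), and Was by -59.0 points (SE 2.97) beside -9.27 points for Wasl (SE 2.61). Other Wasl probe sets ran from -37.9 points (adjusted p = 1.01e-07, limma) to 3.43 points (adjusted p = 0.521, limma).

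**Figure D3:**
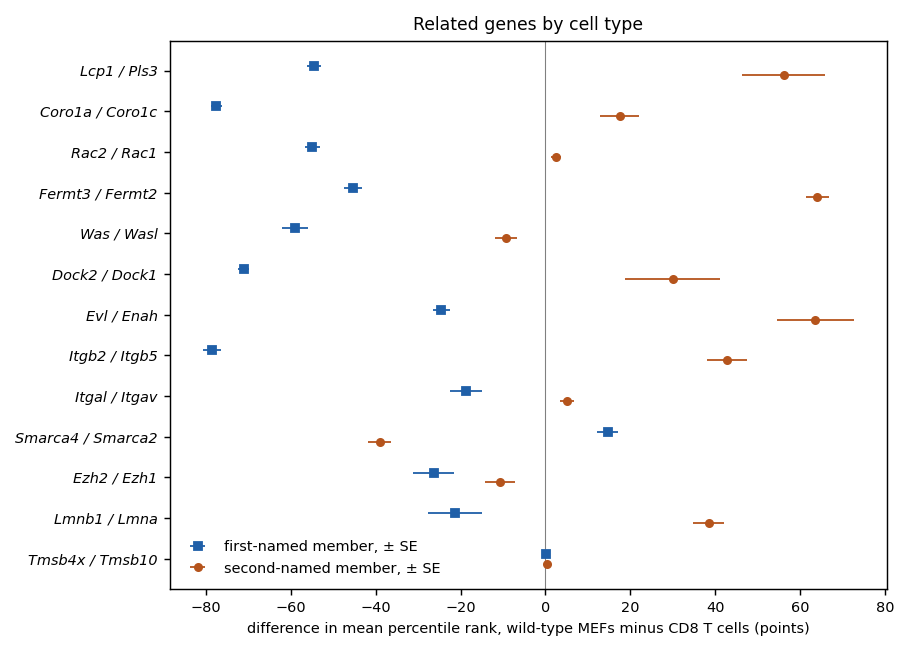
Difference in mean percentile rank, MEFs minus CD8 T cells (horizontal axis, points), for pairs of related genes, with bars for the standard error of limma's fit. The pairs were chosen with earlier results of these data known. In the pairs Lcp1 and Pls3, Fermt3 and Fermt2, Evl and Enah, Dock2 and Dock1, and Itgb2 and Itgb5 the members lie on opposite sides of 0.

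Chromatin regulators differed between the cell types in smaller steps than the identity genes. Of 220 measured genes in 15 lists, 156 were called (70.9%, against 67% of all genes), 50 higher in the MEFs (22.7%) and 106 higher in the CD8 T cells (48.2%). On log2 values centred on the array median the split was 35 and 126. A difference of at least 25 points was less common among them than among all genes, at 33 of 220 (15%) against 21.2%, with 7 higher in the MEFs (3.18%) and 26 in the CD8 T cells (11.8%). Without CD8 arrays 1 and 6 these were 9 and 26. With arrays 3 and 4 alone 71 were called higher in the MEFs and 117 in the CD8 T cells, 9 and 25 of them by at least 25 points. The median difference was -6.14 points, and -5.92 without arrays 1 and 6, against 0.23 points over all genes. The mean rank of the 220 genes was 65.8 to 66.0 on the MEF arrays and 69.8 to 72.5 on the CD8 arrays, and the groups did not overlap. The genes counted as higher in the MEFs include the Y-linked demethylase genes Uty (41.7 points) and Kdm5d (18.0 points, adjusted p = 0.0452, limma). Kdm5d lost its call when any MEF array was left out (adjusted p 0.0889 to 0.112, limma) and by the exact permutation test (adjusted p = 0.125). Other Kdm5d probe sets did not pass (adjusted p = 0.0644 and 0.207, limma). The part of sex in these counts was not tested.

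**Figure D4:**
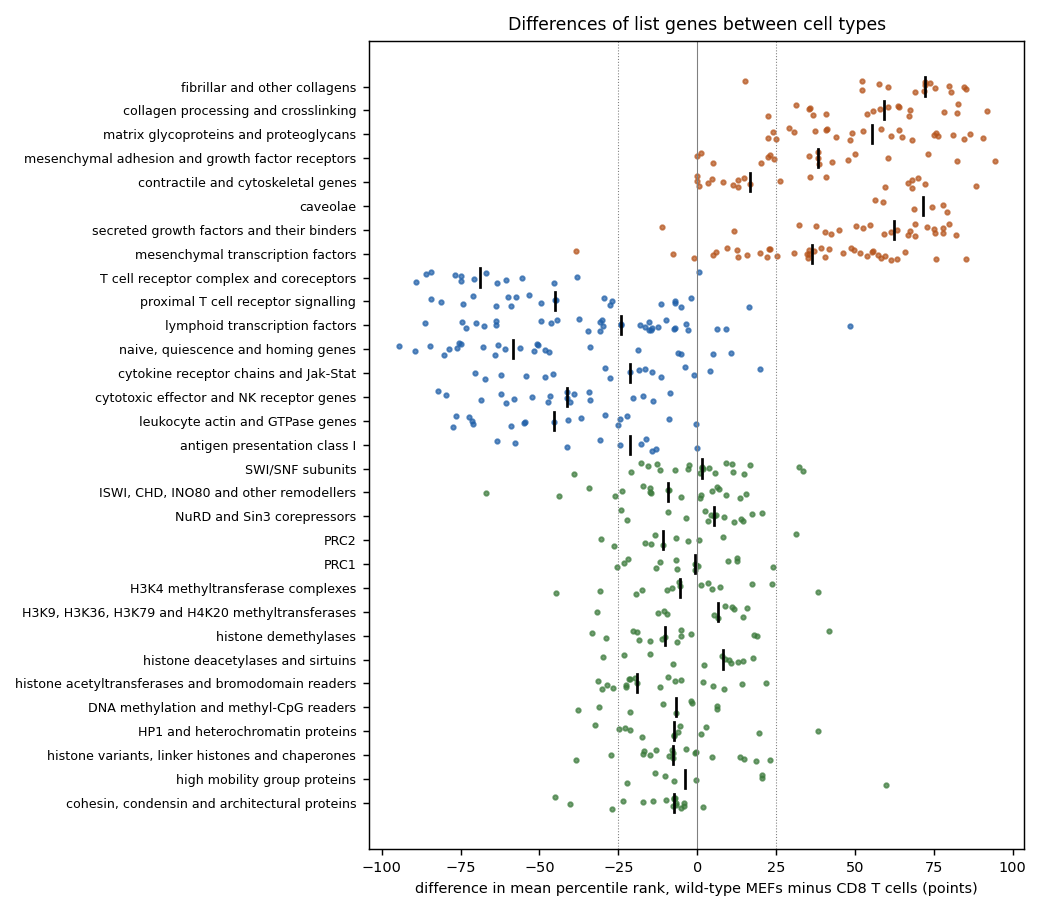
Difference in mean percentile rank, MEFs minus CD8 T cells (horizontal axis, points), for each gene (dots) of the fibroblast, T cell and chromatin lists, with the list median as a vertical bar and dotted lines at 25 points either way. Medians run from 16.9 to 72.1 points in the fibroblast lists, from -68.9 to -21.2 in the T cell lists and from -19.0 to 8.20 in the chromatin lists.

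Of 22 measured SWI/SNF subunits, 6 were higher in the MEFs (27.3%, against 34.6% of all genes), 8 in the CD8 T cells (36.4%, against 32.4%) and 8 did not pass, shares near those of all genes. Their median was 1.53 points. The alternative ATPases of the complex differed in opposite directions. Smarca4 (BRG1) ranked at 91.5, 91.0 and 91.0 in the MEFs and at 69.3 to 82.1 in the CD8 T cells, with a median of 77.0 (14.7 points, SE 2.49, adjusted p = 0.000534, limma). Smarca2 (BRM) ranked at 42.2, 48.4 and 41.8 in the MEFs and at 78.9 to 90.2 in the CD8 T cells, with a median of 83.0 (-39.0 points, SE 2.71, adjusted p = 1.11e-06, limma). The groups overlapped for neither ATPase, and without arrays 1 and 6 the differences were 15.6 and -40.8 points. The interchangeable BAF60 subunits also parted. Smarcd3 ranked at 73.4, 69.2 and 69.4 in the MEFs and at 33.3 to 38.4 in the CD8 T cells (33.7 points, SE 2.18), and Smarcd2 at 76.3 to 77.1 against 97.1 to 98.4 (-21.0 points, SE 0.53, adjusted p = 1.7e-09, limma). Dpf3, a histone-reading subunit of muscle and other differentiated tissues, differed by 32.3 points (SE 3.06) by its brighter probe set. The other probe set of Dpf3 did not pass (-1.79 points, adjusted p = 0.479, limma).

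Smarcb1, which encodes Snf5, the core subunit inactivated in the study's mutant cells, did not differ by its brighter probe set. It ranked at 79.4, 80.6 and 80.4 in the MEFs and at 71.5 to 84.7 in the CD8 T cells, with a median of 80.9, so the MEFs lay inside the CD8 range (1.00 point, SE 3.14, adjusted p = 0.789, limma). Its other probe set was lower in the MEFs (54.1 against 80.9 on average, -26.8 points, adjusted p = 0.00106, limma), and the mean over both differed by -12.88 points (adjusted p = 0.0136, limma).

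PRC2 genes were mostly higher in the CD8 T cells. Of 11 measured, 8 were higher there (72.7%, against 32.4% of all genes), 1 in the MEFs (9.09%, against 34.6%) and 2 did not pass, with a median of -10.7 points. Ezh2, the main methyltransferase, ranked at 59.0, 56.8 and 57.7 in the MEFs and at 91.2, 83.3, 74.8, 72.0, 90.0 and 93.5 on CD8 arrays 1 to 6 (-26.3 points, SE 4.81, adjusted p = 0.000877, limma). Every CD8 array was above the MEFs. The CD8 values ran with the cell cycle genes, being lowest on arrays 3 and 4, where Mki67, the Ki-67 antigen of cycling cells, ranked at 60.2 and 62.5 against 65.6 to 73.0 in the MEFs and 94.2 to 98.9 on the other CD8 arrays. With arrays 3 and 4 alone the difference of Ezh2 was -15.6 points (adjusted p = 0.00017, limma). These arrays were chosen after the data were seen and resembled each other (0.984), so this p does not measure the spread of the whole CD8 group. Ezh1, the other PRC2 methyltransferase, went the other way among the CD8 arrays, at 66.7 and 69.6 on arrays 3 and 4 and 55.2 and 57.4 on arrays 1 and 6, against 51.4 to 52.7 in the MEFs. Its difference was -10.7 points (SE 3.44, adjusted p = 0.0197, limma), and its call was lost when any MEF array was left out (adjusted p 0.0544 to 0.0667, limma).

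Jarid2, an accessory subunit that helps to place PRC2 on chromatin, ranked at 58.5, 55.2 and 59.7 in the MEFs and at 84.8 to 91.6 in the CD8 T cells (-30.6 points, SE 1.84, adjusted p = 4.11e-07, limma). The core subunits Eed and Suz12 differed by -14.5 points (SE 1.31) and -16.5 points (SE 1.17), with opposed probe sets for Suz12. Phf19, a Polycomb-like accessory subunit, was the gene higher in the MEFs, at 61.9 to 64.5 against 26.1 to 35.2 (31.3 points, SE 2.62, adjusted p = 4.09e-06, limma). The other probe set of Phf19 did not pass (4.29 points, adjusted p = 0.186, limma). In PRC1, 4 of 15 genes were higher in the MEFs (26.7%, against 34.6% of all genes), 7 in the CD8 T cells (46.7%, against 32.4%) and 4 did not pass, with a median of -0.81 points. Pcgf2 and Bmi1, alternative PCGF subunits of PRC1, differed by 23.9 points (SE 3.20, with opposed probe sets) and -13.1 points (SE 1.87), and Pcgf1, of a variant PRC1, by -25.3 points (SE 6.44).

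Among ISWI, CHD, INO80 and other remodellers, 3 of 20 genes were higher in the MEFs (15%, against 34.6% of all genes), 12 in the CD8 T cells (60%, against 32.4%) and 5 did not pass, with a median of -9.19 points. Chd7, the chromodomain remodeller of enhancers that is mutated in CHARGE syndrome, held the largest difference of all chromatin genes. It ranked at 19.5, 21.7 and 17.5 in the MEFs and at 75.6 to 92.3 in the CD8 T cells, with a median of 89.3 (-66.8 points, SE 3.94, adjusted p = 3.54e-07, limma). The 2 lowest CD8 values were those of arrays 1 and 6, and the difference was -71.0 points without them. Baz2b, a bromodomain protein, and Atrx, the remodeller that deposits H3.3 in heterochromatin, differed by -43.9 points (SE 4.30) and -34.2 points (SE 2.90). A second Atrx probe set was also called (-25.7 points, adjusted p = 0.000326, limma). Those at 0.76, 7.69 and -3.32 points did not pass (adjusted p = 0.874, 0.138 and 0.362, limma). NuRD and Sin3 corepressors leaned the other way, with 7 of 15 higher in the MEFs (46.7%, against 34.6% of all genes), 3 in the CD8 T cells (20%, against 32.4%) and a median of 5.21 points, none by 25 points. On log2 values centred on the array median, Rcor1, Mta2 and Mbd3 lost their call (adjusted p = 0.0827, 0.249 and 0.175, limma). There Rcor3 turned to 0.01 (log2, adjusted p = 0.981, limma). Rcor1 had opposed probe sets, at 17.3, -12.2 and -15.2 points, and their mean did not pass (-3.38 points, adjusted p = 0.142, limma).

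Enhancer H3K4 methyltransferases differed in opposite directions. Kmt2d (MLL4) ranked at 57.1, 56.7 and 56.2 in the MEFs and at 12.7 to 24.4 in the CD8 T cells (38.3 points, SE 2.94, adjusted p = 2.24e-06, limma). Kmt2c (MLL3), the other enhancer enzyme of this pair, ranked at 35.9, 33.7 and 36.6 in the MEFs and at 66.2 to 89.1 in the CD8 T cells, lowest on arrays 1 and 6 (-44.9 points, SE 4.96, adjusted p = 2.9e-05, limma). Kmt2e and Kmt2a differed by -30.8 points (SE 1.44) and -19.5 points (SE 3.65). In the whole H3K4 list of 15 genes, 3 were higher in the MEFs (20%, against 34.6% of all genes) and 6 in the CD8 T cells (40%, against 32.4%).

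Histone acetyltransferases and bromodomain readers had a median of -19.0 points, with 12 of 19 genes higher in the CD8 T cells (63.2%, against 32.4% of all genes) and 3 in the MEFs (15.8%, against 34.6%). Averaged over probe sets, the median was -11.77 points. The coactivator acetyltransferases Crebbp and Ncoa1 differed by -30.2 points (SE 2.91) and -31.3 points (SE 2.09), Kat2b (PCAF) by -26.7 points (SE 1.36) and Hat1, which acetylates newly made histone H4, by -28.5 points (SE 1.32). A second probe set of Kat2b did not pass (-9.95 points, adjusted p = 0.0698, limma). The bromodomain reader Brd3 was higher in the MEFs by 21.7 points (SE 3.03) by its brightest probe set. Other Brd3 probe sets, at 6.04 and -2.69 points, did not pass (adjusted p = 0.068 and 0.442, limma). Histone deacetylases and sirtuins had 7 of 12 genes higher in the MEFs (58.3%, against 34.6%) and 4 in the CD8 T cells (33.3%, against 32.4%). Their median of 8.20 points became -0.01 on log2 values centred on the array median. The sirtuin deacetylases Sirt1 and Sirt3 differed from most of that list, at -29.9 points (SE 2.71) and -23.3 points (SE 2.11).

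In DNA methylation, 4 of 9 genes were higher in the CD8 T cells (44.4%, against 32.4% of all genes), 0 in the MEFs (against 34.6%) and 5 did not pass. The share called in either direction, 44.4%, was below the 67% of all genes. The de novo methyltransferases Dnmt3b (-37.7 points, SE 3.42) and Dnmt3a (-21.4 points, SE 3.28) and Uhrf1, which brings the maintenance enzyme to replicated DNA, passed. Uhrf1 ranked at 94.5, 93.9, 91.3 and 93.8 on CD8 arrays 1, 2, 5 and 6 and at 74.9 and 68.2 on arrays 3 and 4, against 53.8 to 56.7 in the MEFs (-31.2 points, SE 6.08, and -16.6 points with arrays 3 and 4 alone). Over the mean of its probe sets it did not pass (-12.59 points, adjusted p = 0.0678, limma).

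Cohesin and architectural genes were higher in the CD8 T cells where they passed. Nipbl, the cohesin loader, ranked at 49.6, 48.0 and 46.8 in the MEFs and at 83.2 to 93.7 in the CD8 T cells (-40.3 points, SE 2.13, adjusted p = 1.69e-07, limma), and Ctcf, which positions cohesin loops, at 62.8 to 66.8 against 90.0 to 94.8 (-27.1 points, SE 1.33). Of the 17 genes of that list 11 were higher in the CD8 T cells (64.7%, against 32.4% of all genes), 0 in the MEFs and 6 did not pass, a share called near the 67% of all genes. Their mean rank was 68.1 to 69.5 in the MEFs, 75.7 and 76.8 on CD8 arrays 3 and 4, which also had the lowest cell cycle genes, and 83.5 to 87.1 on the other four, and the part of cell cycle genes in this difference was not tested. Hmga2, an architectural protein of embryonic and proliferating mesenchyme, was the chromatin gene most raised in the MEFs, at 98.8, 98.7 and 98.7 against 33.0 to 44.6 (60.0 points, SE 2.81, adjusted p = 7.41e-08, limma). The lamins parted as well. Lmna, which encodes the A-type lamins of stiff tissues, ranked at 97.2 to 97.3 in the MEFs and at 50.9 to 68.6 in the CD8 T cells (38.4 points, SE 3.69), with 1 of its 4 probe sets opposed. Lmnb1, a B-type lamin, was at -21.3 points (SE 6.44, adjusted p = 0.0148, limma), at -5.81 points with CD8 arrays 3 and 4 alone, and without MEF array 2 its adjusted p was 0.0541. The other probe set of Lmnb1 did not pass (-16.8 points, adjusted p = 0.0801, limma).

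**Figure D5:**
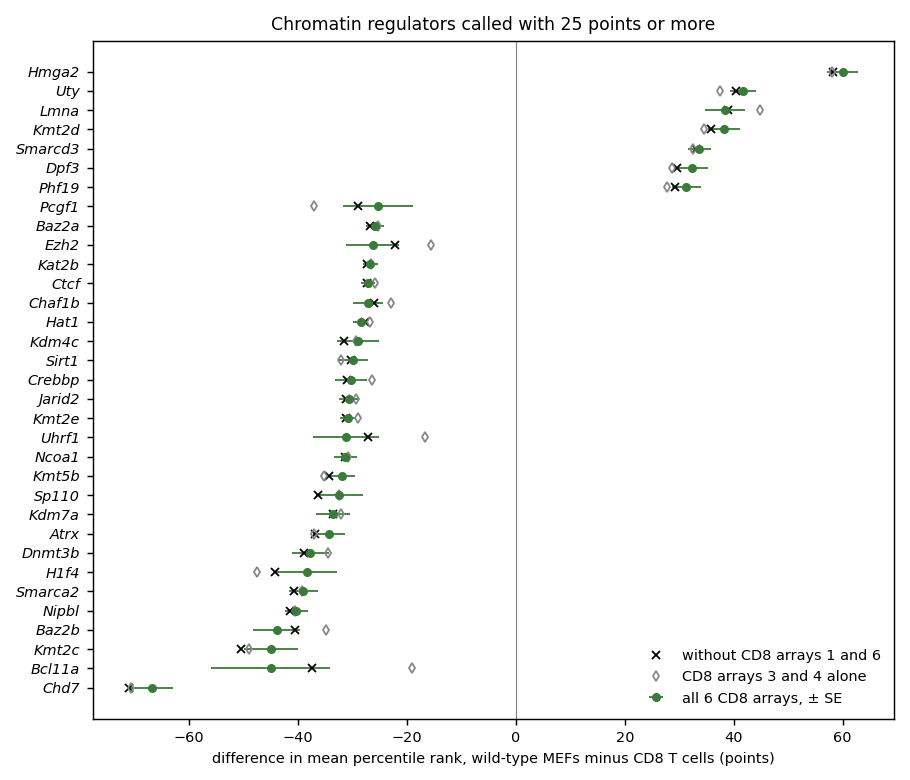
Difference in mean percentile rank, MEFs minus CD8 T cells (horizontal axis, points), of the 33 chromatin regulators called with at least 25 points, with all CD8 arrays (circles, bars for the standard error), without CD8 arrays 1 and 6 (crosses) and with arrays 3 and 4 alone (diamonds). Bcl11a, Uhrf1 and Ezh2 move towards 0 with arrays 3 and 4 alone, and Pcgf1 and H1f4 move away from it. Uty, among the 33, is Y-linked.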

How the data were processed

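RNA of 23 samples had been run on Affymetrix arrays and summarised by RMA, per the labels' protocols. The RMA software was not given in the sources used here. This deposited table holds the authors' intensity values on a linear scale for 22690 probe sets, with no detection calls. After 64 control probe sets were removed, values were ranked within each array, which discards the scale of each normalisation run and compresses differences near 0 and 100. Groups were taken from the sample titles. Samples are titled as biological replicates, with no word on separate cultures or animals. The p-values thus measure spread between arrays, which may be technical, and the number of arrays limits the precision.

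Differences were fitted over all 22626 probe sets with limma 3.58.1 in R 4.3.3 (a variance trend on mean rank, Benjamini-Hochberg adjustment). A gene was represented by its probe set with the highest mean, among those naming that gene alone (12393 genes). Values given for a gene are those of this probe set unless another is named, and other probe sets of a gene did not always pass. On simulated data with these group sizes over 22626 probe sets, 49% of shifts of 0.5 and 73% of shifts of 1 on the normal-score scale were recovered, with 2 false calls. The simulation changed only a small share of the probe sets and drew every array independently. In the real data most probe sets were called and CD8 arrays fell into pairs, so these rates do not measure errors among the calls here. Named genes were the 12 largest differences each way with groups that do not overlap, up to 4 called members of each list in each direction, related pairs, sex-linked genes and defining markers. The 43 gene lists and the pairs were chosen with earlier results of these data known, and 14 further genes (Myl9, Acta2, Vcl, Lat, Lef1, Bcl11b, Ccr7, Gzmb, Ifng, Fn1, Mki67, Dcn, Twist1, Hoxa9) were named after their values were seen; Lat, Dcn and Twist1 were among the cell type markers but not in the naming rule. Replicate numbers were checked for pairing: deviations of same-numbered MEF and CD8 arrays correlated at 0.000, 0.007 and 0.002, so the numbers do not pair the samples. Alternatives covered the scale, the variance model, low probe sets, averaging over probe sets, a second deposited summary of the wild-type MEFs, a replicate block and leaving out each array. Those that drop CD8 arrays 1 and 6, keep CD8 arrays 3 and 4 alone, or weight each group's variance were chosen after seeing the data.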

Additional observations from a re-analysis of the deposited data

Results flagged for a closer look

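In 22 of 284 named genes, 1 CD8 array was flagged by an outlier rule as lying apart from the other 5. Chance alone flags about 1 in 20 groups by this rule, and these genes were not independent. Array 5 was the outlying array for 10 of the 22. Some of the 22 spanned only a few points over all CD8 arrays, such as Cdh11, Srgn and Col1a1 in the ranges given above. On array 5 Cd48 ranked at 85.9, Srgn at 95.8, Arhgdib at 95 and Rac1 at 91.5. Also on array 5, Tnc ranked at 19.2, Mta2 at 82.9, Phf8 at 82.1, Hdac5 at 65.5, Dnmt3b at 73.9 and Gmfb at 80.3. On array 3 Cdh11 ranked at 5.0, and the Y-linked genes Uty and Kdm5d ranked at 13.1 and 36.8. On array 4 Ccn2 ranked at 38.6, Tbl1xr1 at 90.4 and Tubb3 at 53.4. On array 6 Efemp1 ranked at 12.8, Was at 84.6 and Cd3e at 81.9. On array 1 Smarcd3 ranked at 33.3 and Col1a1 at 26.8, and on array 2 Fbln5 ranked at 11.1.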

How the results depend on the processing

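Of the 274 named genes that were called, 223 kept their direction and call under every alternative run and 51 did not in at least 1. With 1 array left out, genes called higher ranged from 3738 to 4425 in the MEFs and 3450 to 4128 in the CD8 T cells, and with at least 25 points from 1309 to 1373 and 1223 to 1302. The fibroblast count ranged from 145 to 153, the T cell count from 120 to 131, and chromatin regulators from 42 to 52 and 93 to 110. With the replicate number as a block these counts were 4290 and 3905, 1388 and 1269, 151, 130, and 54 and 102. The block moved the medians of H3K4 enzymes to -1.32, deacetylases to 5.80 and histone variants to -5.74, and Ezh1, Runx3 and Dock1 were among the calls lost with it. On log2 scales, where a 2-fold difference also replaced 25 points, the counts were 3217 and 3011 (joint quantile) and 4116 and 3336 (minus array median), and the cause was not tested.

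On log2 minus array median, which shifts the median of all genes by 0.12, the deacetylase median was -0.01 and these genes turned: Osr2 0.42, Ruvbl2 -0.12, Rcor3 0.01, Kat2a -0.04, Hoxb13 0.59, Hoxb1 0.82, Myl1 0.60, Nefm 0.71 (0.68 with the second MEF summary), Pax6 0.69, Gmfb -0.12 and Smarcb1 -0.74. The cause was not tested. Averaging over probe sets turned Zap70 (-17.32), Chd4 (-2.04), Rcor1 (-3.38), Smyd1 (-4.27), Tmsb10 (-9.30) and Smarcb1 (-12.88), and 935 of 4956 genes with several probe sets had some called in opposite directions. It moved list medians to 36 (contractile), 48.62 (caveolae), -58.41 (leukocyte actin), -15.62 (PRC2), -2.54 (H3K9 and other methyltransferases), -11.77 (acetyltransferases), -10.58 (DNA methylation), -9.92 (CD4), 4.55 (endothelial) and -2.77 (neural). Leaving out low probe sets gave 27.00 (Hox), 20.26 (muscle and chondrocyte) and 16.08 (neural), with fewer genes. The H3K9 median was 7.30 with the second MEF summary and 4.93 to 9.08 with 1 array left out. Without CD8 arrays 1 and 6 medians moved to 62.40 (matrix), 6.17 (H3K9), -14.69 (demethylases), -4.53 (DNA methylation) and 23.71 (Hox). With arrays 3 and 4 alone they moved to 64.57 (collagen processing), 64.10 (matrix), 24.08 (contractile), 41.76 (mesenchymal factors), -75.97 (T cell receptor), -53.73 (cytotoxic), -4.70 (ISWI and CHD), -14.57 (PRC2), -4.96 (PRC1), 5.40 (H3K9), -14.74 (demethylases), -9.26 (DNA methylation), -5.91 (histone variants), 7.12 (HMG), 8.26 (proliferation), 4.39 (erythroid) and 7.83 (sex-linked), and Mki67 turned to 7.38.

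Limits are few arrays, a narrower spread in the MEFs (median SD 0.91) than in the CD8 T cells (4.25), ranks that compress bright and dim genes, and no detection calls, so dim ranks may be background.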

Other observations

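Hox genes, which record position along the body and limb axes, were higher in the MEFs for 21 of 31 measured genes (67.7%, against 34.6% of all genes). By at least 25 points 14 were higher there (45.2%, against 10.8%). In the CD8 T cells 2 were higher (6.45%, against 32.4%), 8 were not called, and the median was 20.7 points. Of the 31 genes, 5 ranked under 25 on all arrays. Hoxb13 and Hoxb1, the 2 higher in the CD8 T cells, turned to 0.59 and 0.82 on log2 values centred on the array median. Hoxd13 ranked at 65.2, 63.7 and 66.7 in the MEFs and at 7.90 to 15.4 in the CD8 T cells (54.2 points, SE 2.10, adjusted p = 2.06e-08, limma), the largest difference of the list, and Hoxa11 and Hoxd11 differed by 51.3 points (SE 1.91) and 47.9 points (SE 1.52). Hoxa9, also known from blood progenitors, ranked at 46.9 and 56.2 on CD8 arrays 1 and 6 and at 6.21 to 21.2 on arrays 2 to 5, against 64.2 to 69.3 in the MEFs. Its difference was 40.8 points (SE 11) and 53.8 points without arrays 1 and 6.

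CDK inhibitors, which hold cells out of the cycle, parted by member. Cdkn1c (p57), Cdkn2b (p15) and Cdkn1a (p21) were higher in the MEFs by 61.8 points (SE 3.32), 58.5 points (SE 6.54) and 45.3 points (SE 7.14). Cdkn1b (p27), the inhibitor of resting lymphocytes, ranked at 64.0 to 66.4 in the MEFs and at 86.5 to 95.8 in the CD8 T cells (-25.5 points, SE 1.85, adjusted p = 1.52e-06, limma). Cdkn2a differed by 13.3 points and did not pass (adjusted p = 0.157, limma), but passed without arrays 1 and 6 (21.9 points, adjusted p = 0.00251, limma). Of 31 proliferation genes, 12 were higher in the CD8 T cells (38.7%, against 32.4% of all genes), 0 in the MEFs and 19 did not pass. The median of these 31 genes was -7.31 points, and 8.26 points with CD8 arrays 3 and 4 alone.

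Immunoglobulin genes were among the largest differences. Igkv8-30, a kappa chain variable segment, ranked at 95.3 to 100 on the CD8 arrays and at 6.70 to 8.42 in the MEFs (-90.9 points, SE 1.78), and Jchain, the joining chain of secreted antibody, at 83.4 and 72.7 on CD8 arrays 3 and 4 and at 98.6 to 99.5 on the others. Markers of CD4 and regulatory T cells had a median of -17.2 points, with Foxp3 at -25.2 points and Cd4 not called (-18.7 points, adjusted p = 0.0791, limma). Cd4 passed when CD8 array 3 (-22.03 points, adjusted p = 0.0408) or CD8 array 4 (-22.47 points, adjusted p = 0.0324) was left out, and with the replicate block (adjusted p = 0.0498, limma). Sex-linked genes also differed. Xist ranked at 34.1 to 36.6 in the MEFs and at 95.6 to 98.6 on the CD8 arrays. Eif2s3y, on the Y chromosome, ranked at 61.2 to 63.5 in the MEFs, at 65.4 and 35.3 on CD8 arrays 3 and 4 and at 1.46 to 5.92 on the other four. Its difference of 43.4 points (adjusted p = 0.0176, limma) lost its call without MEF array 1 (42.91 points, adjusted p = 0.0519, limma) and without CD8 arrays 1 and 6 (34.9 points, adjusted p = 0.0591, limma). The call was also lost by the exact permutation test (adjusted p = 0.125) and with the replicate block (38.69 points, adjusted p = 0.0686, limma).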
